A study of Homo sapiens with 6 samples.

Results

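The enzymes that attach ubiquitin to proteins were compared between T98G and U87MG, both established human glioblastoma cell lines. The set held every gene on the array whose symbol in the platform annotation begins with UBA and a digit, UBE2, UBE3, CUL and a digit, FBX, or SKP and a digit. It came to 69 genes of 11963 measured, covered by 126 probe sets, and each gene was represented by its brightest probe set. There were 3 genes of E1 type, 19 of E2 type, 3 UBE3 genes, 2 SKP genes, 8 cullins and 34 F-box genes. Choosing by symbol brings in relatives with other functions, such as FBXW4P1, a pseudogene, and UBE2NL, an intronless relative of UBE2N.

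RNA came from untreated cultures, as far as the labels go, with 3 Affymetrix arrays for T98G and 3 for U87MG. Both lines were grown in the same serum-containing medium and carry no added transgene in the labels. The study's interest was how the lines die under bortezomib, which blocks the proteasome, and under G5, which blocks enzymes that remove ubiquitin. U87MG is labelled as the line that resists apoptosis by both compounds, and T98G as the line that undergoes it. Each line is a single culture model of glioblastoma, and nothing in the labels tells whether the replicates of a line came from different cultures. The p-values therefore describe the spread among these arrays, which may be technical.

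Ubiquitin is first activated by an E1 enzyme, handed to an E2 conjugating enzyme, and then joined to a target with the help of an E3 ligase. Cullins are the scaffolds of the largest family of E3 ligases. In the type called SCF, CUL1 holds SKP1, and SKP1 holds an F-box protein that picks the target. Chains of ubiquitin send many targets to the proteasome, including regulators of the cell cycle.

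Levels are log2 signals, given as mean ± SD with n = 3 arrays for each line. Differences are U87MG minus T98G. A level compares arrays for one probe set and not one gene with another. A gene was called higher or lower in U87MG at an adjusted p under 0.05 (limma, Benjamini-Hochberg over all 11963 genes) with a difference of at least 2-fold. Pearson's r across genes was 0.991 to 0.997 within a line and 0.925 to 0.929 between the lines. The poly-A control probe sets averaged 5.30 on U87MG replicate 3 and between 6.10 and 6.84 on every other array. It was also the lowest U87MG array for 43 of the 69 genes (62.3%) and for 42.0% of all genes. The part of this array in each result was not tested, and values without it are given where they change a call. Of 12 glioma and glial markers, all 12 read above 4.03 in both lines, as did 16 of 18 measured markers of other cell types in each line. That limit was the top reading of 3 control probe sets for a bacterial transcript not present in human RNA. It did not set glial markers apart from the others. A mean over 8 was found for 6 of the 12 in each line, and for 2 (T98G) and 1 (U87MG) of the 18. VIM read 14.59 ± 0.05 in T98G and 14.85 ± 0.05 in U87MG, whereas GFAP read only 6.42 ± 0.04 and 6.52 ± 0.04. S100B read 4.13 and 4.23, close to those bacterial controls. Called glial markers went both ways in U87MG. L1CAM (log2 -5.73) and SOX9 (-1.99) were lower, and NES (2.55) and SLC1A3 (1.04) higher. Of 18 measured markers of other cell types, KRT18, a keratin, was called lower in U87MG, while ACTA2, a smooth muscle actin, and CSF1R, a myeloid receptor, were called higher.

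Most differences in genes of ubiquitin conjugation were under 2-fold. The largest difference in either direction was close to 2.5-fold, from log2 -1.33 for UBE2G1 to 1.32 for CUL2, while all genes ran from -8.64 to 8.27. Of the 69 genes, 3 were called higher in U87MG (UBA6, CUL2 and FBXW2), against 6.56% of all genes, and 2 were called lower (UBE2G1 and UBE2K), against 7.01%. Together 5 of 69 (7.25%) were called, against 13.6% of all genes. Without the 2-fold minimum, 16 were higher and 19 lower at an adjusted p under 0.05 (50.7% in all), against 41.3% of all genes, with 19.7% higher and 21.7% lower. For 44 of the 69 genes (63.8%) no array of one line fell within the range of the other, against 52.0% of all genes. The median difference was -0.10 over the 69 genes and -0.01 over all genes, and the median size of a difference was 0.36 against 0.26. The plot of all 69 differences shows genes of the E2, cullin and F-box groups on both sides of 0.

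**Figure D1:**
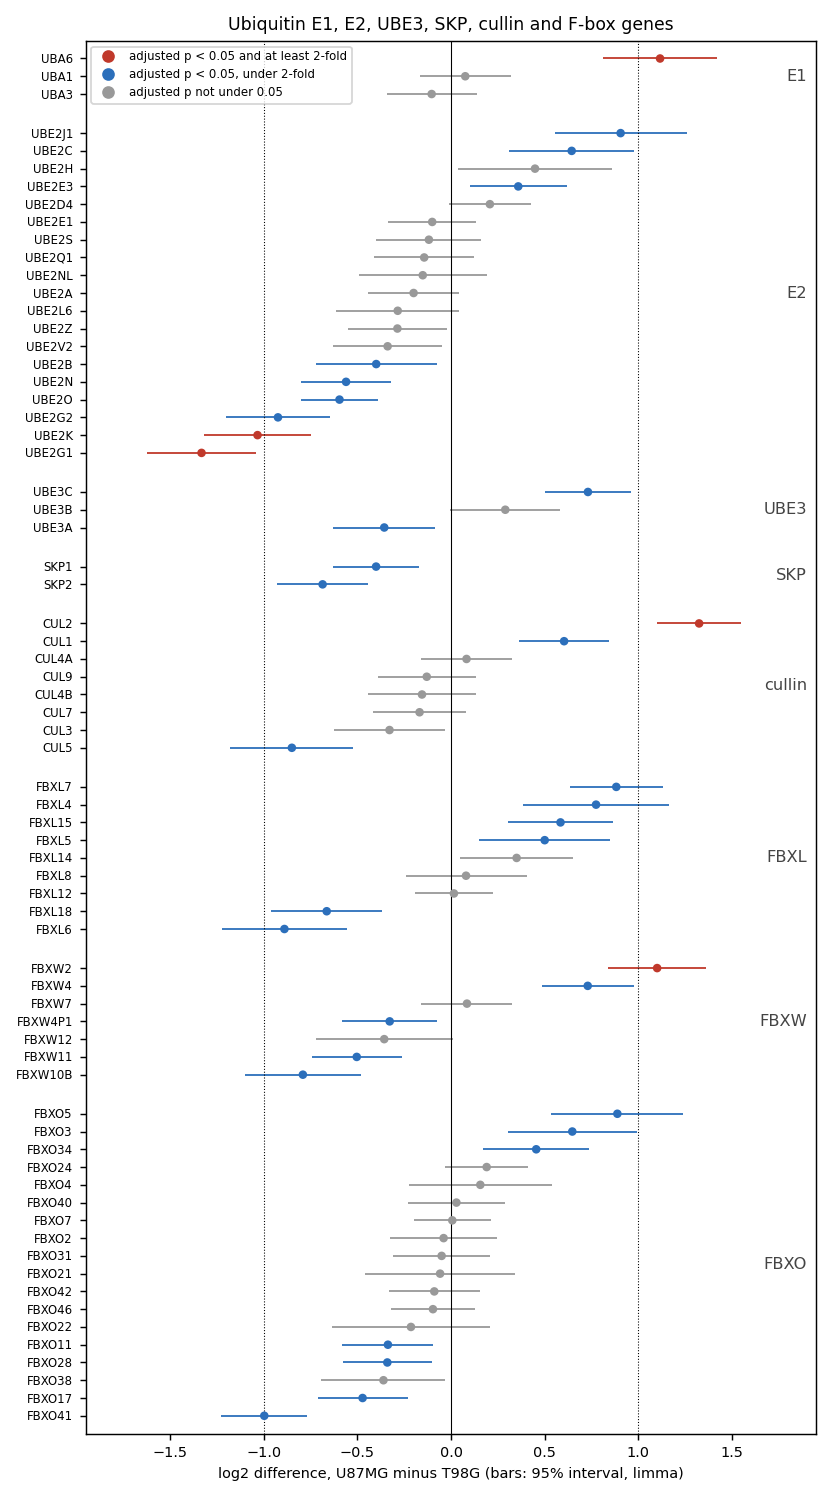
Difference between the lines for each of the 69 genes, grouped by family, with U87MG minus T98G in log2 units on the horizontal axis. Points are limma estimates from 3 arrays per line, bars are 95% intervals, dotted lines mark 2-fold, and colours mark the 5 called genes, the 30 genes that passed the adjusted p but fell short of 2-fold, and the other 34.

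Upstream sequences of the 5 called genes are shown because the measured quantity was the amount of their transcripts. They are the 150 bases before the annotated start, from RefSeq on GRCh38.p14, 5′ to 3′ on the gene's strand. Capitals mark matches on either strand, overlapping ones included, to GGGCGG (the GC box), CCAAT (the CCAAT box), CCGGAA (the core of ETS sites) or TATAAA (the TATA box). CUL2 has 3 annotated starts, and the one farthest upstream is shown. The windows lie at chr4:67701156-67701305 (minus strand) for UBA6, chr10:35090615-35090764 (minus) for CUL2, chr9:120793417-120793566 (minus) for FBXW2, chr17:4366676-4366825 (minus) for UBE2G1 and chr4:39697986-39698135 (plus) for UBE2K.
UBA6: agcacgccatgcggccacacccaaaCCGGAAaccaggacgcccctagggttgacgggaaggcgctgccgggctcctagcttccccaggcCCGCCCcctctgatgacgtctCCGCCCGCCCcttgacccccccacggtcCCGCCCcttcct
CUL2: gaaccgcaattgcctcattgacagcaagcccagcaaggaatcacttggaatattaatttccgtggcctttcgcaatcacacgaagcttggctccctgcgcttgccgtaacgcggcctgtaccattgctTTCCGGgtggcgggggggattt
FBXW2: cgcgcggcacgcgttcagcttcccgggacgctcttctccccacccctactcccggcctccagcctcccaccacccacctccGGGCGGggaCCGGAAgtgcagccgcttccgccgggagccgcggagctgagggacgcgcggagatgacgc
UBE2G1: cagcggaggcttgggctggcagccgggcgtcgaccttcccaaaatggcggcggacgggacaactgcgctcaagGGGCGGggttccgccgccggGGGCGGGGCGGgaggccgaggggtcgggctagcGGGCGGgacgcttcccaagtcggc
UBE2K: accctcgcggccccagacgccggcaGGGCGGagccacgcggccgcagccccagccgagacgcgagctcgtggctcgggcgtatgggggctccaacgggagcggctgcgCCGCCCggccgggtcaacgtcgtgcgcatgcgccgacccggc

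The windows shown for UBA6, CUL2 and FBXW2 each hold a CCGGAA match, but those at the other 2 starts of CUL2 hold none. The windows of UBE2G1 and UBE2K hold GC boxes without a CCGGAA match. GC boxes numbered 4 for UBA6, 4 for UBE2G1, 2 for UBE2K and 1 for FBXW2. None of the 5 windows shown holds CCAAT or TATAAA. Of the 55 genes of the set with an entry, 19 (34.5%) hold CCGGAA in a window and 38 (69.1%) a GC box, against 13.4% and 40.7% of all 27305 genes with an entry, which include non-coding genes. The matches describe letters in these windows and no binding was measured.

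Among the E1 genes, UBA6 rose in U87MG, while UBA1 and UBA3 did not pass the test. UBA6 encodes an E1 that activates ubiquitin alongside UBA1. It read 8.24, 8.57 and 8.47 on the T98G arrays and 9.53, 9.75 and 9.34 on the U87MG arrays. Every U87MG array lay above every T98G array, a 2.17-fold difference (log2 1.12, SE 0.14, limma adjusted p = 0.000121). The other UBA6 probe set read 4.34 and 4.12, near those bacterial controls, with a difference of -0.21. The UBA6 call therefore rests on 1 probe set, and it was lost with the mean of both (log2 0.45). UBA1, the principal ubiquitin E1, read 12.37 ± 0.10 in T98G and 12.44 ± 0.12 in U87MG (95% interval of the difference -0.17 to 0.32). UBA3, the catalytic subunit of the E1 for the ubiquitin-like protein NEDD8, had an interval of -0.34 to 0.14.

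Of 19 E2 genes, 0 were called higher and 2 were called lower, against 6.56% and 7.01% of all genes. A further 7 passed the adjusted p short of 2-fold. In all, 12 had an unadjusted limma p under 0.05, which 47.8% of all genes had. At the adjusted p 3 were higher and 6 lower, against 19.7% and 21.7% of all genes. UBE2G1, which acts in degradation of endoplasmic reticulum proteins and lengthens chains on targets of cullin ligases, had the largest fall. Its T98G arrays read 11.57, 11.42 and 11.32 and its U87MG arrays 10.25, 10.19 and 9.87. The lines were more than 1 log2 unit apart on every pair of arrays, with a 2.52-fold difference in the means (log2 -1.33, SE 0.13, adjusted p = 2.61e-05). Both UBE2G1 probe sets were called lower, the other at log2 -1.20. UBE2K, which builds chains that mark proteins for the proteasome, read 11.00, 10.87 and 10.83 in T98G and 10.04, 9.95 and 9.63 in U87MG. The arrays did not overlap, and the difference was 2.05-fold (log2 -1.03, SE 0.13, adjusted p = 0.000126). Its other probe set was called lower as well, at log2 -1.05. UBE2K fell just short of 2-fold without T98G replicate 1 (log2 -0.98) or U87MG replicate 3 (log2 -0.91).

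E2 genes of endoplasmic reticulum-associated degradation went opposite ways. UBE2G2, a soluble E2 of that pathway, read 11.44, 11.60 and 11.35 in T98G and 10.69, 10.59 and 10.34 in U87MG. It was lower in every U87MG array, at log2 -0.92 (SE 0.12, adjusted p = 0.000221), short of 2-fold. Its other probe set had log2 -0.51. UBE2J1, the membrane-anchored E2 of the pathway, read 8.95, 9.28 and 9.05 in T98G and 10.26, 10.05 and 9.68 in U87MG. Its arrays were apart in the other direction, at log2 0.91 (SE 0.16, adjusted p = 0.00118). All 4 UBE2J1 probe sets were above 0 (log2 0.90 to 1.23), and 2 of them met the call. With the mean of its probe sets (1.03) or without U87MG replicate 3 (1.06), UBE2J1 passed 2-fold.

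Among E2 genes of the cell cycle, UBE2C was higher in U87MG and UBE2S did not pass the test. Both enzymes serve the anaphase-promoting complex, UBE2C starting chains and UBE2S extending them. UBE2C read 11.95, 12.37 and 12.14 in T98G and 12.54, 12.89 and 12.97 in U87MG. The highest T98G array lay below the lowest U87MG array, and the difference was 1.56-fold (log2 0.64, adjusted p = 0.00596). UBE2S read 12.78 ± 0.21 in T98G and 12.66 ± 0.08 in U87MG, with an interval of -0.40 to 0.16. UBE2E3, another E2, was higher by log2 0.36 (adjusted p = 0.0305), and it missed the adjusted p without any one array but U87MG replicate 3 (adjusted p = 0.0544 to 0.0956).

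UBE2N and UBE2V2 act as a pair that builds chains used in signalling and DNA repair. UBE2N was lower in U87MG at log2 -0.56 (adjusted p = 0.00216), and its 3 probe sets ran from -0.65 to -0.47. Its brightest probe set can match related transcripts, such as UBE2NL, which had log2 -0.15 on 1 probe set of the same kind. UBE2V2 had log2 -0.34 (-0.63 to -0.05, adjusted p = 0.0613), and passed with the replicate block (adjusted p = 0.0433), the filter on dim probe sets (0.0475), the other variance model (0.0399) or without U87MG replicate 1 (0.0431). UBE2O, a large enzyme with both E2 and E3 activity, was lower at log2 -0.60 (SE 0.09, adjusted p = 0.00056). Its arrays spread little, with 9.24 ± 0.03 in T98G and 8.65 ± 0.02 in U87MG. UBE2B, a homologue of yeast RAD6, was lower at log2 -0.40 (adjusted p = 0.0494) on its brightest probe set, but its other 3 probe sets had 0.23 to 0.34. UBE2B missed the adjusted p without any one array but U87MG replicate 1 (adjusted p = 0.0741 to 0.137), and with the replicate block (adjusted p = 0.0512). Its close relative UBE2A had -0.20 and 0.20 on 2 probe sets. UBE2L6, the interferon-inducible E2 for the ubiquitin-like protein ISG15, read 11.03, 10.58 and 10.81 in T98G and 10.65, 10.29 and 10.63 in U87MG. Those arrays overlapped, and the interval was -0.61 to 0.04. UBE2Z, which takes ubiquitin from UBA6, had log2 -0.29 (-0.55 to -0.02, adjusted p = 0.0807), and -0.39 (adjusted p = 0.0116) without U87MG replicate 3, against the direction of UBA6. UBE2D4, UBE2E1, UBE2H and UBE2Q1 had differences from -0.14 (UBE2Q1) to 0.45 (UBE2H), none at an adjusted p under 0.05 by limma. UBE2H passed it without U87MG replicate 3 (log2 0.64, adjusted p = 0.00948), with the replicate block (adjusted p = 0.0177) and with quantile normalisation (adjusted p = 0.0426).

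**Figure D2:**
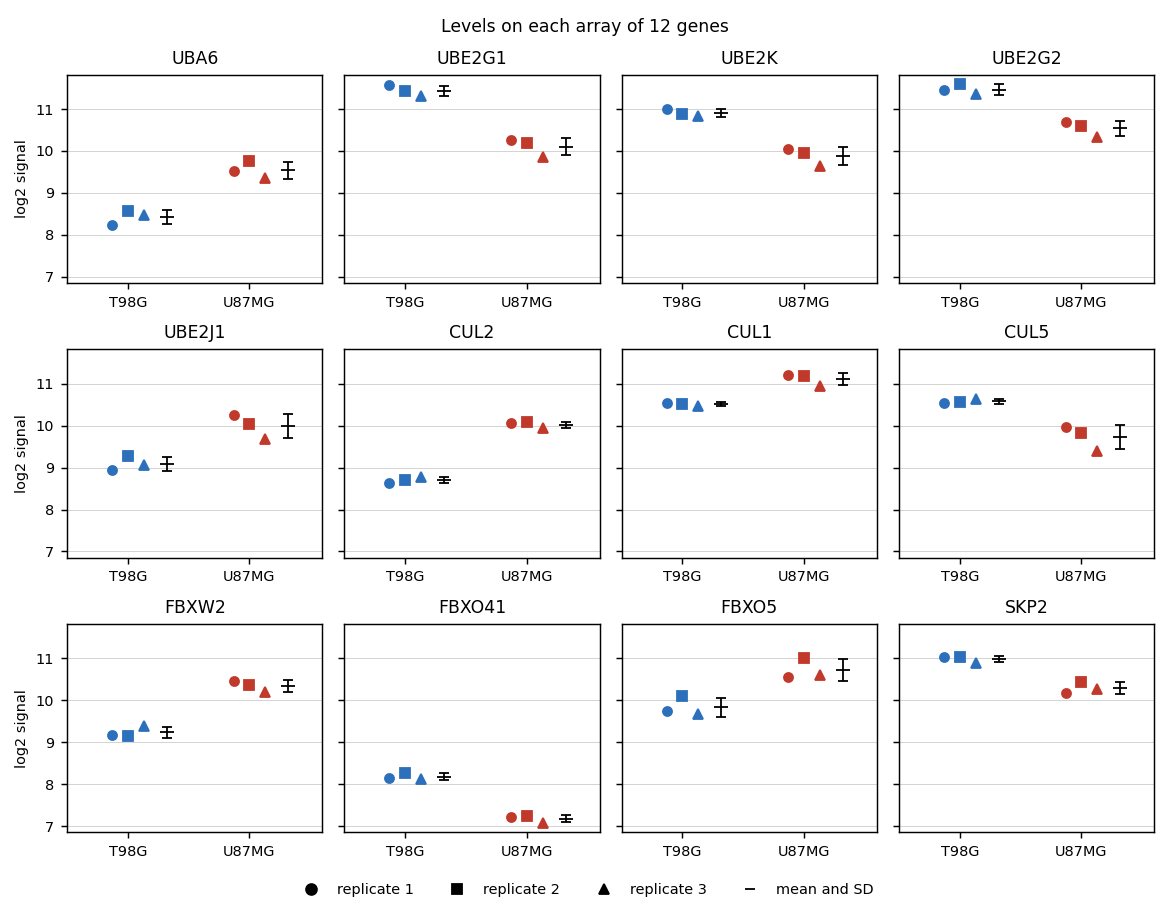
Log2 signal on each array for 12 genes of the set, with T98G on the left and U87MG on the right of each panel. Marker shapes give the replicate number, and horizontal marks with bars give mean and SD of 3 arrays. The 12 shown were picked from genes that passed the adjusted p, so the lack of overlap in all 12 panels is no separate result. Arrays of the lines did not overlap for 63.8% of the 69 genes and 52.0% of all genes.

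The UBE3 genes encode E3 ligases of the HECT type, which carry ubiquitin themselves before passing it on. UBE3C, a ligase that binds the proteasome, was higher in U87MG at log2 0.73 (10.55 ± 0.03 against 11.28 ± 0.13, adjusted p = 0.00032). UBE3A, the ligase recruited by papillomavirus E6 and lost in Angelman syndrome, was lower at log2 -0.36 (adjusted p = 0.0396) on the brightest of 6 probe sets. The 6 ran from -0.44 to 0.13, and the mean of them did not pass (log2 -0.23, adjusted p = 0.0854). UBE3A also missed the adjusted p without any one array but U87MG replicate 2 (adjusted p = 0.0541 to 0.151). UBE3B had log2 0.29 (-0.003 to 0.58) on its brightest probe set and 0.61 and 0.69 on its other 2. The brightest passed without T98G replicate 3 (log2 0.41, adjusted p = 0.03), as did the mean of all 3 (log2 0.53, adjusted p = 0.00185).

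Both SKP genes were lower in U87MG at the adjusted p, as were 21.7% of all genes, although neither reached 2-fold. SKP2, the F-box protein that directs the cell cycle inhibitor p27 to degradation, read 11.03, 11.03 and 10.90 in T98G and 10.17, 10.45 and 10.28 in U87MG. Every U87MG array was lower, at log2 -0.69 (SE 0.11, adjusted p = 0.000666). The other SKP2 probe sets had -0.57 and -0.04. All SKP2 probe sets are of a kind that can match several transcripts, so SKP2 has no value once these are removed. SKP1, the adaptor of all SCF ligases, was lower at log2 -0.40 (13.87 ± 0.05 against 13.47 ± 0.11, adjusted p = 0.0103). Its 4 probe sets ran from -0.56 to -0.03, and the only one that does not match several transcripts did not pass (log2 -0.29, adjusted p = 0.115). Without T98G replicate 1 the brightest did not pass either (adjusted p = 0.0506).

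Of 8 cullin genes, 1 was called higher and 0 were called lower, against 6.56% and 7.01% of all genes. CUL1 and CUL5 passed the adjusted p in opposite directions. CUL2 is the scaffold of the ligase that holds the VHL tumour suppressor and degrades hypoxia-inducible factors. It read 8.62, 8.71 and 8.77 in T98G and 10.06, 10.08 and 9.94 in U87MG. The groups were over 1 log2 unit apart with little spread in either line, and the difference was 2.50-fold (log2 1.32, SE 0.10, adjusted p = 4.54e-06). The other CUL2 probe set was higher by log2 0.75 (adjusted p = 0.000799 among probe sets that match 1 transcript), which is short of 2-fold. CUL1, the SCF scaffold, read 10.55, 10.52 and 10.46 in T98G and 11.21, 11.17 and 10.96 in U87MG, 1.52-fold higher (log2 0.60, SE 0.11, adjusted p = 0.00128). On the brightest probe sets CUL1 differed in the opposite direction to its adaptor SKP1. CUL1 had only 1 probe set, and like the brightest of SKP1 it is of a kind that can match several transcripts. CUL5, the scaffold of ligases with SOCS-box proteins, read 10.53, 10.56 and 10.64 in T98G and 9.98, 9.81 and 9.40 in U87MG. All U87MG arrays were lower, at log2 -0.85 (SE 0.15, adjusted p = 0.00113), and all 3 CUL5 probe sets were below 0, at -0.99 to -0.61.

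The other cullins did not pass the test. CUL3, the scaffold for BTB-domain proteins such as KEAP1, had log2 -0.33 (-0.62 to -0.03, adjusted p = 0.0725) on its brightest probe set, and passed without U87MG replicate 1 (-0.41, adjusted p = 0.0438) and with the other variance model (adjusted p = 0.0438). Its other 2 probe sets had 0.003 and 0.66, so the probe sets for CUL3 disagreed in sign. CUL4A and CUL4B, which work with DDB1 in DNA repair and replication, had intervals of -0.16 to 0.33 and -0.44 to 0.13. CUL7 and CUL9, larger relatives of the other cullins, had log2 -0.17 and -0.13. Of these, CUL9 was measured by 1 probe set.

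Among 34 F-box genes, 1 was called higher and 0 were called lower, against 6.56% and 7.01% of all genes. At the adjusted p 9 were higher and 9 lower (median difference -0.02), against 19.7% and 21.7% of all genes. In the FBXW group, whose WD repeats bind targets, FBXW2 read 9.18, 9.16 and 9.40 in T98G and 10.46, 10.38 and 10.20 in U87MG. The arrays were well apart, with a 2.14-fold difference (log2 1.10, SE 0.12, adjusted p = 4.54e-05). A second FBXW2 probe set of similar brightness had only log2 0.42, and the mean of both had 0.76, which ended the call. FBXW4 was higher at log2 0.73 (8.30 ± 0.06 against 9.03 ± 0.15, adjusted p = 0.000472). FBXW7, the tumour suppressor that targets cyclin E and MYC, read 8.40 ± 0.03 and 8.48 ± 0.15 (interval -0.16 to 0.33). FBXW11, which like BTRC targets beta-catenin and the NF-kB inhibitor, was lower at log2 -0.50 (adjusted p = 0.00376), with -0.07 on its other probe set, and the mean of both did not pass (log2 -0.29, adjusted p = 0.0824). FBXW10B was lower at log2 -0.79 on the brightest of 4 probe sets, the others having -0.32 to -0.18, and did not pass without multiply matching probe sets (-0.32, adjusted p = 0.0824). The pseudogene FBXW4P1 was lower at log2 -0.33 (adjusted p = 0.042), and missed the adjusted p without T98G replicate 1 or 3 or U87MG replicate 2 or 3 (adjusted p = 0.0573 to 0.172), with arrays centred on their medians (0.057) and with the other variance model (0.0561). FBXW12 had -0.36 (-0.72 to 0.01), or -0.49 (adjusted p = 0.048) without U87MG replicate 2.

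The FBXL group carries leucine-rich repeats. At the adjusted p 4 of its 9 genes were higher and 2 lower, against 19.7% and 21.7% of all genes. Of the 9, 0 were called, against 13.6% of all genes. By unadjusted limma p under 0.05 there were 7, against 47.8% of all genes. FBXL7 was higher at log2 0.88 (8.75 ± 0.12 against 9.63 ± 0.11, adjusted p = 0.000151). FBXL4, a mitochondrial protein that restrains removal of mitochondria, was higher at log2 0.77 (6.85 ± 0.28 against 7.62 ± 0.27). FBXL15 was higher at log2 0.58. FBXL5, an iron sensor that degrades iron regulatory proteins, was higher at log2 0.50 (adjusted p = 0.027), with 0.72 on its other probe set. FBXL5 missed the adjusted p without T98G replicate 1 or 2 or U87MG replicate 1 or 2 (adjusted p = 0.0624 to 0.102). FBXL6 was lower at log2 -0.89 (9.19 ± 0.20 against 8.30 ± 0.23, adjusted p = 0.00094), and passed 2-fold without U87MG replicate 3 (-1.02). FBXL18 was lower at log2 -0.66, with -0.23 and -0.08 on dimmer probe sets, and did not pass without multiply matching probe sets (-0.23, adjusted p = 0.0915). FBXL8, FBXL12 and FBXL14 had log2 0.08, 0.02 and 0.35, and none of them passed. FBXL14 did pass under both further scalings (adjusted p = 0.0384 and 0.0269), with the filter on dim probe sets (0.0483) and without U87MG replicate 3 (log2 0.46, adjusted p = 0.014).

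Of 18 FBXO genes, 0 were called, against 13.6% of all genes. At the adjusted p 3 were higher and 4 lower, against 19.7% and 21.7% of all genes. An unadjusted limma p under 0.05 was found for 8, against 47.8% of all genes. FBXO5, also known as EMI1, inhibits the anaphase-promoting complex before mitosis. It read 9.74, 10.09 and 9.68 in T98G and 10.56, 11.02 and 10.60 in U87MG. The lowest U87MG array exceeded the highest T98G array, at log2 0.89 (SE 0.16, adjusted p = 0.00132), and FBXO5 passed 2-fold without T98G replicate 2 (1.02). FBXO41, a gene best known from neurons, read 8.14, 8.27 and 8.12 in T98G and 7.21, 7.25 and 7.08 in U87MG. It was lower on every array at log2 -0.996 (SE 0.10, adjusted p = 3.81e-05), just under the 2-fold minimum. Leaving out any one of T98G replicates 1 and 3 and U87MG replicates 1 and 2 took it to -1.03 to -1.01. Its second probe set had -0.58.

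Further FBXO genes differed by less. FBXO3 and FBXO34 were higher at log2 0.65 and 0.45, and FBXO17, FBXO28 and FBXO11 lower at -0.47, -0.34 and -0.34. FBXO11 directs the repressor BCL6 to degradation, and its 3 probe sets ran from -0.34 to -0.26, with no pass once multiply matching ones were removed (-0.28, adjusted p = 0.0661). FBXO28 turned to log2 0.26 on its other probe set, and the mean of both was -0.04 (adjusted p = 0.789). The adjusted p rose above 0.05 for FBXO11 without T98G replicate 1, 2 or 3 or U87MG replicate 3 (0.0538 to 0.0964). It did so for FBXO28 without T98G replicate 1 or 2 or U87MG replicate 1 or 3 (0.0503 to 0.104), and for FBXO34 without T98G replicate 1 or U87MG replicate 1 or 2 (0.0504 to 0.0627). FBXO7, mutated in an early parkinsonian syndrome, gave nearly the same value on every array, 10.82 ± 0.01 in T98G and 10.83 ± 0.02 in U87MG (interval -0.20 to 0.21). FBXO4 read 3.92 to 4.59 over the 6 arrays, near the bacterial controls, so its difference of 0.16 says little. The remaining 9 genes with no adjusted p under 0.05 ran from log2 -0.36 (FBXO38) to 0.19 (FBXO24). FBXO38 passed the adjusted p without U87MG replicate 2 (-0.47, adjusted p = 0.0436) and with quantile normalisation (adjusted p = 0.0465).

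Agreement between probe sets limited several of these values. Of 31 genes with more than 1 probe set, all probe sets had the same sign in 21. The share of such genes over the whole array was not computed. No gene had probe sets called both ways, which says little, since only 6 had any probe set called. The other 38 genes had 1 probe set each. The plot of probe sets shows UBE2G1, UBE2K and UBE2J1 with closely placed values, whereas UBA6, CUL3 and UBE2B spread across 0.

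**Figure D3:**
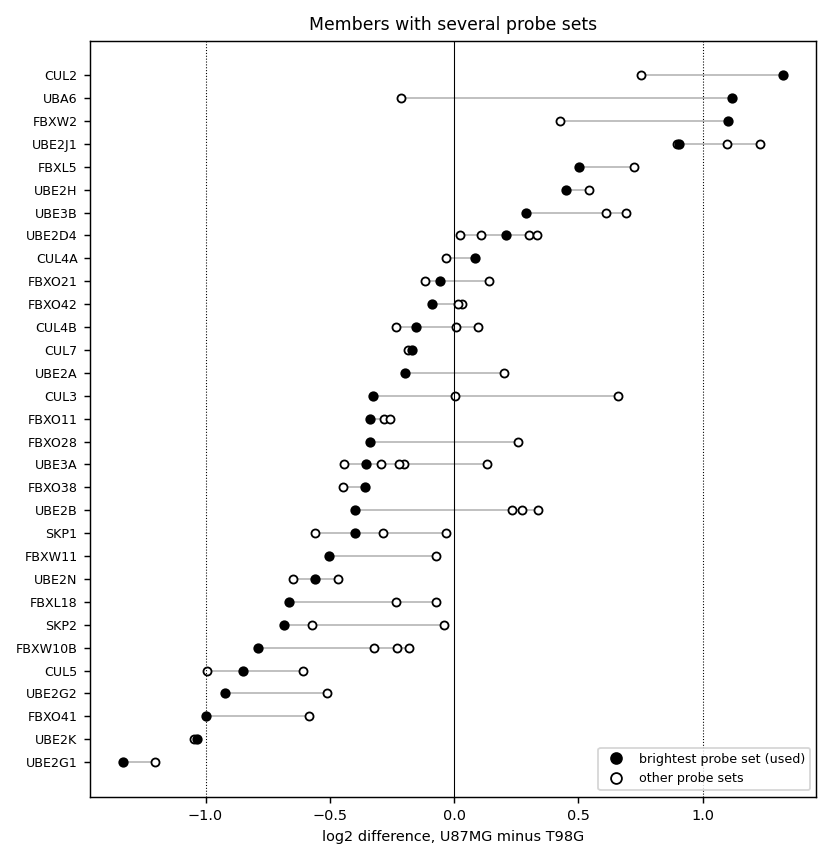
Difference between the lines (U87MG minus T98G, log2) for every probe set of the 31 genes with several probe sets. Filled points are the brightest probe set, used for the gene, and open points are the others, and UBA6 runs from 1.12 on the filled point to -0.21 on the open one.

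Other genes of ubiquitin ligation were read from lists, beside the same background of 6.56% called higher and 7.01% called lower. Of 41 genes for the machinery of cullin ligases, including F-box genes with other names, 1 was called higher, 1 lower and 39 neither (median difference 0.01). DDB2, a DNA damage receptor on CUL4 ligases and a target of p53, read 8.43 ± 0.13 in T98G and 10.39 ± 0.06 in U87MG, 3.91-fold higher. SOCS2, a substrate receptor on CUL5 ligases, read 9.32 ± 0.09 and 6.69 ± 0.02, 6.22-fold lower. RBX1, the RING subunit of most cullin ligases, had log2 0.03 (-0.19 to 0.25), NEDD8 0.15 and KEAP1 0.10. VHL, the partner of CUL2, averaged 3.72 and 3.83, under the highest control value, so its level was not resolved. BTRC and CCNF, F-box genes with other names, had log2 0.20 and -0.33 and did not pass. Of the genes that encode ubiquitin itself only UBB was measured, at log2 -0.07 (adjusted p = 0.617).

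Among 15 genes of the anaphase-promoting complex and its activators and checkpoint partners, 0 were called and 5 had an unadjusted limma p under 0.05, against 47.8% of all genes. CDC20, an activator, had log2 -0.13 (-0.36 to 0.09). Beside UBE2C and FBXO5, 30 proliferation genes had 1 called higher, 0 lower and 13 at an unadjusted p under 0.05, again against 47.8% (median 0.05). MCM6, part of the replicative helicase, was the one called, at 2.46-fold higher. The part of proliferation in the values of UBE2C and FBXO5 was not tested.

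Of 32 known targets of SCF and other cullin ligases, 3 were called higher, 4 lower and 25 neither (median 0.04). JUN, a transcription factor, was 2.37-fold higher (log2 0.84 without multiply matching probe sets, short of 2-fold), as were the cell cycle genes CDKN1A and CCND1 by 5.69-fold and 3.72-fold. RHOB, a small GTPase, was 3.94-fold lower, NFE2L2, which encodes NRF2, 3.49-fold lower and CDKN1C, a cell cycle inhibitor, 3.36-fold lower. These are transcript levels and the amounts of the proteins were not measured.

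Of 49 E3 ligase genes outside the set, 4 were higher, 5 lower and 40 neither (median -0.05). SMURF1 and SMURF2, HECT ligases that act on the TGF-beta pathway, were 2.78-fold and 3.37-fold lower, and RBCK1, a subunit of the linear chain assembly complex, 2.67-fold lower. RNF144A was 4.23-fold higher. RNF128, a ligase of the endosomal membrane, was at least 6.92-fold higher, with T98G values of 3.35 to 3.77 set to the highest control value. HERC5, which attaches ISG15, was higher by 9.48-fold, whereas ISG15 itself was called lower, by 2.15-fold. Beside UBE2L6, 27 interferon response genes had 3 higher and 10 lower (median -0.70), with BST2, IFIT1 and IFITM1 the furthest below 0 and IFI44L, HERC5 and IFI44 the furthest above. A short list of genes linked to muscle atrophy had 0 higher and 2 lower (KLF9 and CEBPD) of 6 measured. FBXO32, the only F-box gene on that list, was not among those measured.

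**Figure D4:**
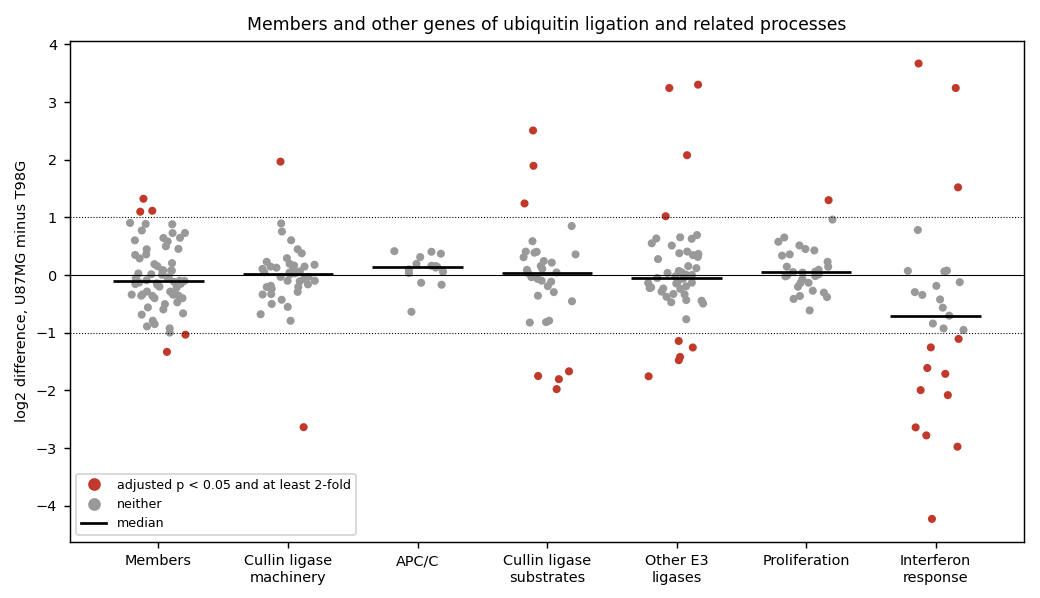
Difference between the lines (U87MG minus T98G, log2, vertical axis) for the 69 genes of the set and for 6 lists of related genes. Each point is a gene, placed sideways at random within its column, with called genes in red and medians as black bars, and the 69 genes lie between -1.33 and 1.32 while the list of other E3 ligases reaches 3.30.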

How the data were processed

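Per the labels' protocols, biotin was added to total RNA of T98G and U87MG in a single amplification cycle. The values are log2 signals of probe sets as the authors deposited them. The submitters' processing notes name RMA and limma without versions. RMA equalises arrays, so a difference in total RNA would be hidden, and it compresses differences of dim transcripts. The number of arrays limits the precision (median residual SD 0.146).

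Of 22277 probe sets, 19064 had 1 gene in the platform annotation of 2016, 1043 several and 2108 none, and 62 were controls. Symbols were updated by Entrez identifier (19052 matched). The brightest probe set stood for each of 11963 genes. The lines were compared in limma 3.58.1 (R 4.3.3) by a two-sided moderated test with 4 residual degrees of freedom from lmFit and eBayes. P-values were adjusted over all genes by Benjamini-Hochberg. The steps were tested on simulated data.

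The genes of the set and the lists were chosen with earlier results of these data known. Named were called genes, up to 3 genes per family and direction by size at an adjusted p under 0.05 (or the 2 with the smallest p), 28 preset genes that were measured, and up to 3 called genes per list and direction. Others named were chosen after their values were seen. Alternatives were 2 further scalings (arrays centred on their medians, and quantile normalisation), a filter on dim probe sets (mean over 7.63 in at least 1 line), the mean of probe sets, removal of multiply matching probe sets (identifiers ending in _x_at, _s_at or _a_at), another variance model (intensity trend, robust), limma's treat, a replicate block and leaving out each array. Lists were described by counts and medians only. Promoter motifs were searched by exact match. Protein sequences were not used here.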

Additional observations from a re-analysis of the deposited data

How the results depend on the processing

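UBE2G1 was called lower under every alternative run. The same 5 genes were called under both further scalings, the filter on dim probe sets (which kept 60 of the 69 genes), the other variance model and the replicate block. Without multiply matching probe sets 47 of the 69 genes remained, some of them on other probe sets. Of these 47, 1 was called higher (UBE2J1) and 11 were lower at the adjusted p. In that setting CUL2 had log2 0.75, FBXW2 0.42, and UBA6 turned to -0.21 and FBXO28 to 0.26. With probe sets averaged per gene, CUL3 turned to 0.11, UBE2B to 0.11 and UBE2A to 2.84e-05. Leaving out 1 array, genes with no adjusted p under 0.05 spanned both signs, with FBXL12 at -0.016 to 0.039, FBXL8 at -0.055 to 0.23, FBXO2 at -0.13 to 0.089, FBXO4 at -0.034 to 0.30, FBXO7 at -0.0031 to 0.012, FBXO21 at -0.19 to 0.16, FBXO31 at -0.12 to 0.036 and FBXO40 at -0.054 to 0.12. The causes were not tested. Limma's treat against 1.5-fold added FBXO41. Leaving out 1 array gave 3 to 4 genes called higher, 2 to 3 called lower, 13 to 18 higher and 13 to 19 lower at the adjusted p, and medians of -0.12 to -0.06. Deviations of same-numbered arrays correlated at 0.15, 0.07 and 0.04, and those of differently numbered arrays at -0.12 to 0.06. These small values do not settle whether replicate numbers pair the samples. With the replicate block 17 genes were higher and 19 lower at the adjusted p. Signal near the control probe sets limits FBXO4 and VHL.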

Other observations

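The neighbours of the 5 called genes were read by gene order in RefSeq, as 5 measured genes on each side, a step chosen after the values were seen. Around CUL2, 3 of 10 neighbours were called higher in U87MG and 1 lower, against 6.56% and 7.01% of all genes. Their median difference was 0.61, against -0.01 over all genes. The higher neighbours were PARD3, a cell polarity gene, at log2 3.97, CREM, a transcription factor responsive to cyclic AMP, at 1.43, and NRP1, a co-receptor for semaphorins and VEGF, at 1.03. ZNF37BP was lower at log2 -1.15. Around FBXW2, the proteasome assembly gene PSMD5 was called higher at log2 1.63 and TLR4 lower at -1.03, with a median of -0.01. Around UBE2G1, NCBP3 was called lower at log2 -1.35, 8 of 10 neighbours were below 0, and the median was -0.40. Around UBE2K, CHRNA9 was called higher at log2 4.11, against the direction of UBE2K, and around UBA6 none of 10 neighbours was called by limma. Neighbours on the same side of 0 as the called gene numbered 7 of 10 for CUL2 and 8 for UBE2G1. They numbered 5 for FBXW2, 6 for UBA6 and 4 for UBE2K. No share over all genes was computed for this count, and a regional cause was not tested. Copy number was not measured.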
